A study of Homo sapiens with 12 samples.

Results

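Heterogeneous nuclear ribonucleoproteins (hnRNPs) are nuclear proteins that bind transcripts as they are made. The 10 genes described here are HNRNPA2B1, HNRNPC, HNRNPD, HNRNPF, HNRNPH1, HNRNPK, HNRNPL, HNRNPM, HNRNPR and HNRNPU. They were picked by symbol, not by measured value, from a count table of 59050 genes, and all 10 were found in it. Earlier results of these data were known when the choice was made. Their RNA was counted in wild-type HUES8, a human embryonic stem cell line. Neural progenitor cells (NPC) had been given neural induction medium for 7 days with LDN193189 at 0.05 uM, which blocks BMP receptors, and SB431542 at 2.5 uM, which blocks receptors of the Nodal, activin and TGF-beta branch. The second inhibitor was left out for the last 2 days. Embryonic stem cells (ESC) were the same WT line kept in mTeSR1 medium without induction. Each state was measured in 3 libraries of ribosome-bound RNA and in 3 libraries of total RNA depleted of rRNA, 12 in all. No source used here says how the ribosomes were isolated. All cells came from a single line, and no label says whether the 3 libraries of a group came from separate cultures, so p-values measure the spread between these libraries, which may be technical.

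The hnRNPs coat nascent transcripts and influence which splice sites are used, where 3′ ends form, how transcripts leave the nucleus, how long they last and how well they are translated. Most of them shuttle between nucleus and cytoplasm, and most read RNA through RNA recognition motifs, while HNRNPK uses KH domains. HNRNPA2B1 and HNRNPC belong to the core of the particle that packages pre-mRNA. HNRNPC binds tracts of U, HNRNPL repeats of CA, HNRNPK runs of C, HNRNPF and HNRNPH1 runs of G, and HNRNPM stretches rich in G and U. HNRNPD, also called AUF1, binds AU-rich elements and takes part in mRNA decay. HNRNPR is known in motor neurons for a role in carrying mRNA along axons. HNRNPU, also called SAF-A, binds chromatin as well as RNA. Splicing programmes change when stem cells become neural cells, with the PTBP family as a well-studied example.

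The ribosome-bound libraries held 2422756 to 4451196 counts each and the total RNA libraries 19529738 to 35117370, so ribosome-bound values are less precise. Levels are given in CPM, the counts of a gene relative to the total of its library, scaled by edgeR's TMM method. The limit that a count of 0 allows, 3 counts, came to 0.674 to 1.24 CPM in ribosome-bound RNA and 0.0854 to 0.154 CPM in total RNA, for counting error only. All 10 genes stood far above these limits in every library, and all 10 passed the filter on low counts in every comparison. Summed RNA of 8 pluripotency markers was 4953 to 5121 CPM in NPC and 10351 to 10629 CPM in ESC. LIN28A averaged 4469 CPM in NPC and 4719.6 CPM in ESC and made up most of the NPC sum, while POU5F1 averaged 21.6 CPM in NPC and 942 CPM in ESC, and NANOG 1.23 CPM in NPC and 433 CPM in ESC. Summed RNA of 8 neural progenitor markers was 938 to 1002 CPM in NPC and 393 to 451 CPM in ESC, and no marker of either list was at 0 throughout a group. NES made up most of both sums, with averages of 707 CPM in NPC and 405 CPM in ESC. PAX6 averaged 42.3 CPM in NPC and 0.708 CPM in ESC, SOX1 46.8 and 2.94 CPM, and OTX2 90.4 and 8.68 CPM. Every marker of this list averaged higher in NPC RNA. Of the lists for other fates, 5 neural crest markers summed to 177 to 178 CPM in NPC RNA and 8.42 to 17.9 CPM in ESC RNA. PAX3 (average 90.1 CPM) and TFAP2B (64.6 CPM) made up most of the NPC sum, while SOX10 averaged 5.90 CPM there. FOXD3 alone went the other way, at 5.38 CPM in NPC and 12.9 CPM in ESC. The 6 mesoderm and endoderm markers summed to 0.861 to 1.12 CPM in NPC RNA and 10.7 to 11.9 CPM in ESC RNA. In ribosome-bound RNA they summed to 1.95 to 4.17 CPM in NPC and 250.3 to 287 CPM in ESC, of which MIXL1 alone gave 146 to 224 CPM in ESC. The 6 neuron markers summed to 31.7 to 35.8 CPM in NPC RNA and 60.7 to 70.7 CPM in ESC RNA. The 4 trophoblast and amnion markers summed to 78.6 to 81.0 CPM in NPC RNA and 70.8 to 72.2 CPM in ESC RNA. Such sums do not show which cells were present, and the part of any such cells in the hnRNP values was not tested.

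Among the libraries, 2 stood apart from the others of their group. Correlations were taken across genes above a low cut-off on mean total RNA, which are not independent replicates. RNA_ESC replicate 3 correlated with the other ESC RNA libraries at r = 0.973 and 0.967, against 0.996 between those libraries. RIBO_ESC replicate 2 correlated with the other ribosome-bound ESC libraries at r = 0.953 and 0.961, against 0.980 between those libraries. Replicates of NPC correlated at 0.996 to 0.997 in total RNA and at 0.979 to 0.982 in ribosome-bound RNA. The hnRNP genes moved with these libraries. In RIBO_ESC replicate 2 all 10 lay below the average of the other libraries of their group. The median difference was −1.03 on the log2 scale, with a range of −1.61 to −0.57. Over 8328 genes that passed a cut-off on mean level in both assays, the median was −0.01. This was not particular to the 10 genes. Of 19 other genes of the hnRNP family, all but PTBP3 were also lowest in RIBO_ESC replicate 2 among the ribosome-bound ESC libraries. Core spliceosome genes were split. SNRNP200 was lowest there (78.8 CPM against 481 and 421 CPM) and SNRPD2 highest (1013 CPM against 706 and 685 CPM). In RNA_ESC replicate 3 the median deviation of the 10 hnRNP genes, also from the other libraries of the group, was 0.30, with a range of −0.07 to 0.58. Summed markers of neural progenitors were also lower in RIBO_ESC replicate 2, at 160.2 CPM against 459 and 374 CPM in the other ribosome-bound ESC libraries, most of it from NES (98.2 CPM against 389 and 306 CPM). The summed pluripotency markers were lower there too, at 2059.6 CPM against 2762 and 2743 CPM in the others, but the list was split. DNMT3B (577 CPM against 1606 and 1491 CPM), LIN28A, ZFP42 and NANOG were lowest in that library. POU5F1, TDGF1, SOX2 and GDF3 (834 CPM against 373 and 479 CPM) were highest there. Values without these libraries are given in many places where leaving them out changed a call or moved a value, a choice made after seeing the data. They are not given everywhere, so a value without an alternative is not thereby stable.

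The promoter sequences of 4 genes are shown first, because HNRNPA2B1, HNRNPD and HNRNPF were called lower in both assays, and HNRNPF and HNRNPM were the genes whose ratio of ribosome-bound to total RNA was called as changed. The letters are RefSeq's for assembly GRCh38.p14, 5′ to 3′ on the strand of the gene, and give the 120 bases before the start of the gene in RefSeq's promoter table. Capitals mark letters of the motifs named next, on either strand. HNRNPA2B1 lies at chr7:26189927-26200746 on the minus strand and its window at chr7:26200747-26200866. HNRNPD lies at chr4:82352498-82373991, minus strand, with the window at chr4:82373992-82374111. HNRNPF lies at chr10:43385618-43409186, minus strand, and its window at chr10:43408858-43408977 falls inside the outermost bounds of the gene. HNRNPM lies at chr19:8444975-8489114, plus strand, with the window at chr19:8444855-8444974.
HNRNPA2B1: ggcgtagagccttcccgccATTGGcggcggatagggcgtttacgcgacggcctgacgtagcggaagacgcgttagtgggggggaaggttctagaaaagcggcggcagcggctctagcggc
HNRNPD: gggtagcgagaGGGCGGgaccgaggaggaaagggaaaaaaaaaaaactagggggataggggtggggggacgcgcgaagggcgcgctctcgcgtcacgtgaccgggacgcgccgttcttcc
HNRNPF: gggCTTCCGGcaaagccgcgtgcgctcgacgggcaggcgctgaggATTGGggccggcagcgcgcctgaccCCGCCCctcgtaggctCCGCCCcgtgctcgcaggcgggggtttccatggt
HNRNPM: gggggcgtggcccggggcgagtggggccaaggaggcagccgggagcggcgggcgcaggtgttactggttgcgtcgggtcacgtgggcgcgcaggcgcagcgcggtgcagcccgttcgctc

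The other 6 genes lie on the minus strand. HNRNPC spans chr14:21209147-21269442, HNRNPH1 chr5:179614178-179634784, HNRNPK chr9:83968083-83980615 and HNRNPL chr19:38836370-38852347. HNRNPR and HNRNPU share a chromosome, at chr1:23304688-23344284 and chr1:244850297-244864543. All 10 are protein-coding in RefSeq. All 10 genes had an entry in that table of 35116 promoters, and 250 bases before the start were searched on both strands. The CCAAT box (CCAAT) was found in 6 of 10, against 32.0% of all promoters, and the GC box (GGGCGG) in 6 of 10, against 42.6%. The ETS motif (CCGGAAG) was found in 2, HNRNPD and HNRNPF, against 8.5%, and the TATA box (TATAAA) in 2, HNRNPC and HNRNPD, against 10.7%. None of the 10 held the YY1 motif (AAGATGGC), against 1.4%. In HNRNPU a CCAAT match on each strand overlapped. The windows of HNRNPM and HNRNPH1 held none of the motifs. The 10 promoters had a median of 25 CpG and 65.8% GC in 250 bases, against 11 and 58.0% over all promoters. HNRNPM had the most CpG, 33, and HNRNPH1 the fewest, 8, below the median of all promoters. HNRNPC, with 48.4% GC, was below that median in GC. A match describes these letters and is no evidence of a bound factor.

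The first comparison asked how the RNA of these genes differed between NPC and ESC. In total RNA 6 of the 10 were lower in NPC, 0 were higher and 4 were not called (edgeR quasi-likelihood test, adjusted p under 0.05). Over all 18631 genes tested, 52.6% were called, 26.2% as lower and 26.4% as higher. The median log2 fold change was −0.34 for the 10 genes and 0.03 for all genes tested. HNRNPA2B1, HNRNPD, HNRNPM and HNRNPF showed the larger falls, each to between 0.53 and 0.61 of the ESC level. In bulk samples such as these, fewer cells of a type and less RNA per cell cannot be told apart.

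**Figure D1:**
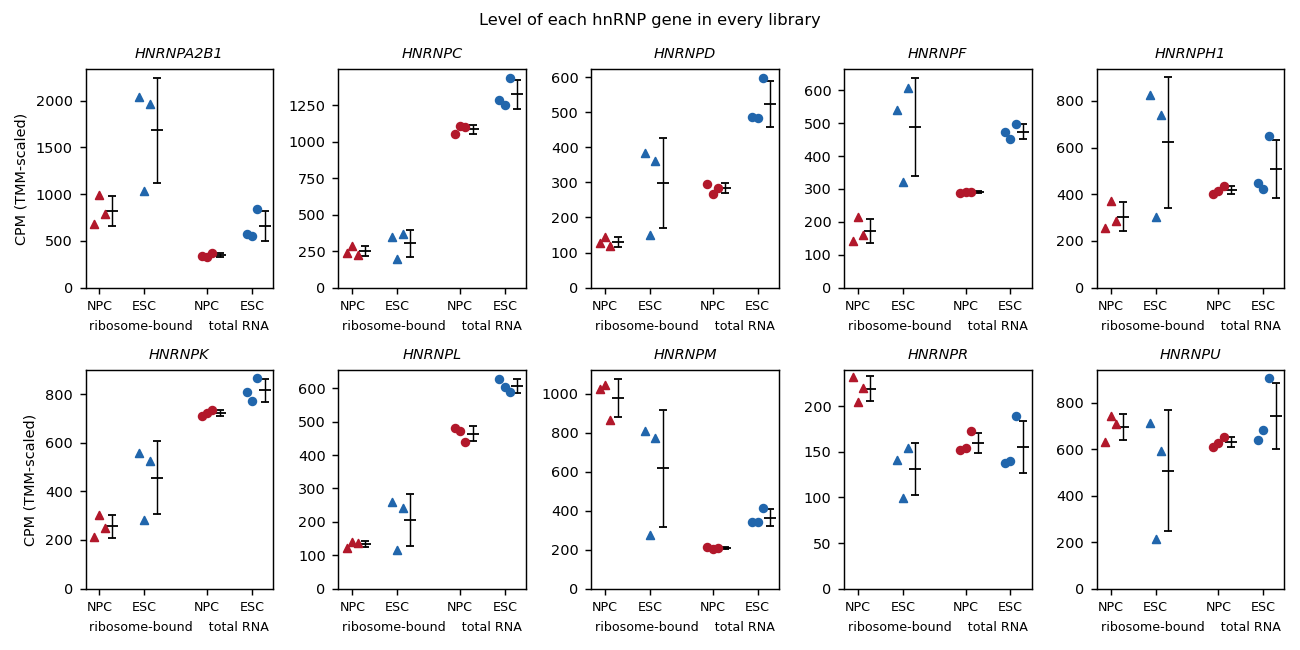
Level of each of the 10 hnRNP genes in every library, in TMM-scaled CPM on an axis from 0, with NPC in red and ESC in blue, ribosome-bound RNA as triangles on the left and total RNA as circles on the right; the black mark and bar give the mean ± SD of 3 libraries. HNRNPM is higher in NPC than in ESC in ribosome-bound RNA and lower in NPC in total RNA, and 1 ribosome-bound ESC library lies low in every panel.

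HNRNPA2B1, the A/B-type core protein, had 342, 331 and 371 CPM in NPC RNA, against 572, 553 and 841 CPM in ESC RNA. Every NPC library was below every ESC library, and the third ESC library stood above the other ESC values. The log2 fold change was −0.91 ± 0.16 (SE, 3 libraries per state; adjusted p = 0.00216), or −0.69 without RNA_ESC replicate 3. HNRNPD, the AU-rich element binder, had 296, 268 and 285 CPM in NPC RNA, against 487, 483 and 599 CPM in ESC RNA. Its log2 fold change was −0.89 ± 0.11 (adjusted p = 3.24e-04), and the states did not overlap. HNRNPM, which regulates alternative exons, had 212, 205 and 211 CPM in NPC RNA, against 339, 339 and 415 CPM in ESC RNA. The NPC libraries were close to each other and all below ESC, with a log2 fold change of −0.80 ± 0.11 (adjusted p = 4.36e-04).

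The G-run binders HNRNPF and HNRNPH1 parted in this test. HNRNPF had 286, 292 and 291 CPM in NPC RNA, against 474, 451 and 496 CPM in ESC RNA, a log2 fold change of −0.71 ± 0.08 (adjusted p = 2.26e-04). The states were well separated. HNRNPH1 had 401, 415 and 435 CPM in NPC RNA, against 449, 423 and 652 CPM in ESC RNA, and the states overlapped. Its log2 fold change of −0.28 was not called (95% interval −0.60 to 0.03, adjusted p = 0.177) and stood at −0.06 without RNA_ESC replicate 3. The difference between the changes of HNRNPF and HNRNPH1 was not tested.

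HNRNPL and HNRNPC were also lower, by less. HNRNPL, the CA-repeat binder, spanned 439 to 481 CPM in NPC RNA and 588 to 629 CPM in ESC RNA, a log2 fold change of −0.39 ± 0.08 (adjusted p = 0.00520). HNRNPC, the U-tract binder, spanned 1050.3 to 1108 CPM in NPC RNA and 1252 to 1434 CPM in ESC RNA, a log2 fold change of −0.29 ± 0.09 (adjusted p = 0.0235). The call of HNRNPC ended without RNA_NPC replicate 1 (adjusted p = 0.104), 2 (0.0793) or 3 (0.0808), and when libraries were scaled by total counts (0.0817) or over protein-coding genes (0.0536).

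HNRNPK, HNRNPU and HNRNPR were not called. HNRNPK, the C-run binder, spanned 712 to 735 CPM in NPC RNA and 774 to 866 CPM in ESC RNA without overlap, with a log2 fold change of −0.17 (95% interval −0.33 to −0.01, adjusted p = 0.108). Its p in the edgeR test was 0.0656 before adjustment, so an interval matched to that test would include 0. HNRNPU, the chromatin-associated member, spanned 611 to 654 CPM in NPC RNA and 641 to 906 CPM in ESC RNA, with a log2 fold change of −0.24 (−0.50 to 0.03, adjusted p = 0.175), or −0.07 without RNA_ESC replicate 3. HNRNPR had 152, 155 and 173 CPM in NPC RNA, against 137, 140.4 and 189 CPM in ESC RNA. These values overlapped, with a log2 fold change of 0.04 (−0.24 to 0.32, adjusted p = 0.829). Without RNA_ESC replicate 3, HNRNPR was called higher in NPC, at 0.20 (adjusted p = 0.00589). In that fit 69.6% of all genes were called, and 6 of the 10 hnRNP genes were lower and 1 higher. Its sign was negative without RNA_ESC replicate 1 (−0.08), RNA_ESC replicate 2 (−0.07) or RNA_NPC replicate 3 (−0.01).

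The same question was asked of ribosome-bound RNA. Here 5 of the 10 genes were lower in NPC (HNRNPA2B1, HNRNPD, HNRNPF, HNRNPH1 and HNRNPK), 1 was higher (HNRNPR) and 4 were not called (HNRNPC, HNRNPL, HNRNPM and HNRNPU). Over all 12250 genes tested, 61.8% were called, 30.3% as lower and 31.6% as higher. The median log2 fold change was −0.73 for the 10 genes and −0.01 for all genes tested. Without RIBO_ESC replicate 2, in which every member lay low, 7 were lower and 1 higher, while 68.1% of all genes were called, 33.3% as lower and 34.8% as higher. The median was then −1.01 for the 10 genes and 0.03 for all genes. Without RIBO_NPC replicate 1, 2 were lower and 1 higher, while 53.1% of all genes were called.

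HNRNPF ranked lowest of the 10 in this comparison, with 143, 215 and 158 CPM in NPC, against 539.9, 321 and 606 CPM in ESC. Every NPC library lay below every ESC library, also below the low second one. The log2 fold change was −1.51 ± 0.27 (adjusted p = 5.07e-04), 2.85-fold lower in NPC, and −1.75 without RIBO_ESC replicate 2. HNRNPD had 128, 144 and 118 CPM in NPC, against 384, 149 and 361 CPM in ESC, a log2 fold change of −1.20 ± 0.31 (adjusted p = 0.00514), or −1.54 without RIBO_ESC replicate 2. The gap between the states was narrow at the second ESC library, which came close to the NPC values. HNRNPA2B1 had 675, 992 and 789 CPM in NPC, against 2042, 1038 and 1962 CPM in ESC, a log2 fold change of −1.04 ± 0.29 (adjusted p = 0.00885), or −1.30 without RIBO_ESC replicate 2. Its call ended without RIBO_NPC replicate 1 (−0.90, adjusted p = 0.0516).

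HNRNPH1 had 254, 373 and 284 CPM in ribosome-bound NPC RNA, against 824, 303 and 741 CPM in ESC. The second ESC library fell inside the NPC range, and the other ESC libraries were far above it. The log2 fold change was −1.04 ± 0.33 (adjusted p = 0.0175), and −1.38 without RIBO_ESC replicate 2 (adjusted p = 3.42e-10). HNRNPK had 213, 304 and 251 CPM in NPC, against 559, 284 and 527 CPM in ESC, a log2 fold change of −0.84 ± 0.27 (adjusted p = 0.0185). It too overlapped only through the second ESC library, and stood at −1.10 without it (adjusted p = 2.37e-08). The calls of both genes ended without RIBO_ESC replicate 1, RIBO_ESC replicate 3, RIBO_NPC replicate 1 or RIBO_NPC replicate 3, with adjusted p between 0.0592 and 0.0971.

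HNRNPC spanned 222 to 288 CPM in NPC and 199 to 371 CPM in ESC, a log2 fold change of −0.29 (95% interval −0.78 to 0.20, adjusted p = 0.333). HNRNPL spanned 122 to 140.3 CPM in NPC and 116 to 259 CPM in ESC, a log2 fold change of −0.63 (−1.17 to −0.09, adjusted p = 0.0641). Both were called lower without RIBO_ESC replicate 2, HNRNPC at −0.54 (adjusted p = 9.57e-04) and HNRNPL at −0.92 (adjusted p = 1.46e-07). With all libraries HNRNPL was called lower by DESeq2 (−0.65, adjusted p = 0.0491) and by edgeR without the filter on low counts (−0.65, 0.0241).

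HNRNPR, HNRNPM and HNRNPU had positive changes in ribosome-bound RNA. HNRNPR had 233, 205 and 220.0 CPM in NPC, against 141, 99.5 and 155 CPM in ESC. All NPC libraries were above all ESC libraries, and the log2 fold change was 0.73 ± 0.21 (adjusted p = 0.00983), 1.66-fold higher in NPC. Without RIBO_ESC replicate 2 it was 0.55 (adjusted p = 5.94e-04). HNRNPM had 1024, 1046 and 864 CPM in NPC, against 809, 273 and 773 CPM in ESC. The states did not overlap, yet the second ESC library was far below the others, and the log2 fold change of 0.66 was not called (95% interval −0.02 to 1.34, adjusted p = 0.117). It was 0.29 without that library (adjusted p = 0.0894). With all libraries but without the filter on low counts, HNRNPM was called higher (0.64, adjusted p = 0.0341). HNRNPU spanned 633 to 744 CPM in NPC and 214 to 714 CPM in ESC, with a log2 fold change of 0.46 (−0.24 to 1.15, adjusted p = 0.283), or 0.08 without RIBO_ESC replicate 2.

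Next, the change of each gene in ribosome-bound RNA was set against its change in total RNA. Ribosome-bound RNA divided by total RNA is called translational efficiency here, and a fit of all 12 libraries tested its change between NPC and ESC through an interaction term. It is a relative quantity, since each library is scaled to its own counts. Efficiency was higher in NPC for HNRNPM and lower for HNRNPF, and the other 8 genes were not called. Over all 11866 genes tested, 42.3% were called, 22.6% as higher and 19.7% as lower. The median log2 change was −0.25 for the 10 genes and −0.07 for all genes tested.

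**Figure D2:**
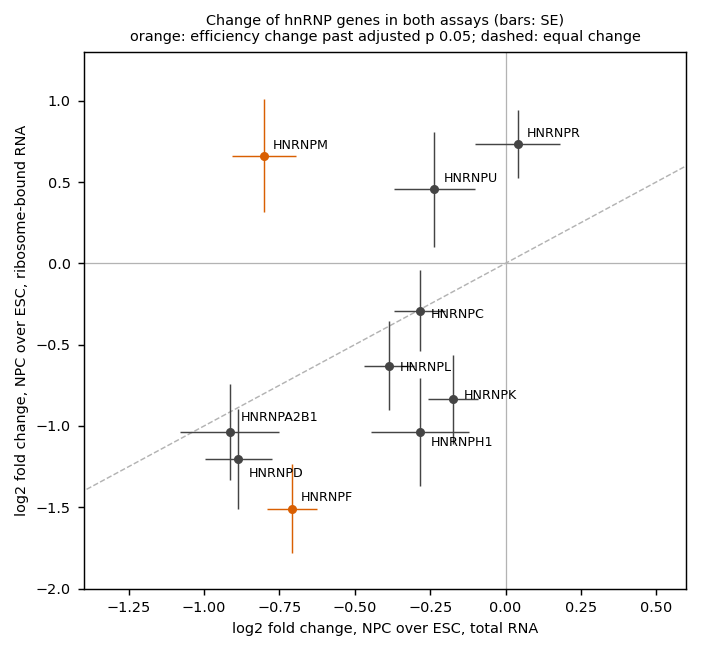
Log2 fold change of NPC over ESC in total RNA (x axis) and in ribosome-bound RNA (y axis) for the 10 hnRNP genes, with bars for the SE of each and a dashed line where both changes are equal. HNRNPM, at 0.66 in ribosome-bound RNA and −0.80 in total RNA, lies far above the line, and HNRNPF, at −1.51 in ribosome-bound RNA and −0.71 in total RNA, below it; both are in orange because the adjusted p of the efficiency change was under 0.05.

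HNRNPM changed by 1.39 ± 0.41 in log2 efficiency (adjusted p = 0.0133), 2.62-fold higher in NPC. Its total RNA was lower in NPC while its ribosome-bound RNA was not. Of all genes tested, 87.0% had a lower value. The change stayed positive and called with each of the 12 libraries left out in turn. It was 1.07 without RIBO_ESC replicate 2 (adjusted p = 4.96e-04) and 0.93 without both libraries that stood apart (adjusted p = 1.57e-06). HNRNPF changed by −0.87 ± 0.31 (adjusted p = 0.0346), 1.83-fold lower in NPC, as its ribosome-bound RNA fell by more than its total RNA. The direction held with each library left out, but 9 of these 12 fits ended the call, with adjusted p between 0.0608 and 0.100. Those fits left out RNA_ESC replicate 1 or 2, any of the 3 RNA_NPC libraries, RIBO_ESC replicate 1 or 3, or RIBO_NPC replicate 1 or 3. Without RIBO_ESC replicate 2 the change of HNRNPF was −1.07 (adjusted p = 8.70e-04).

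**Figure D3:**
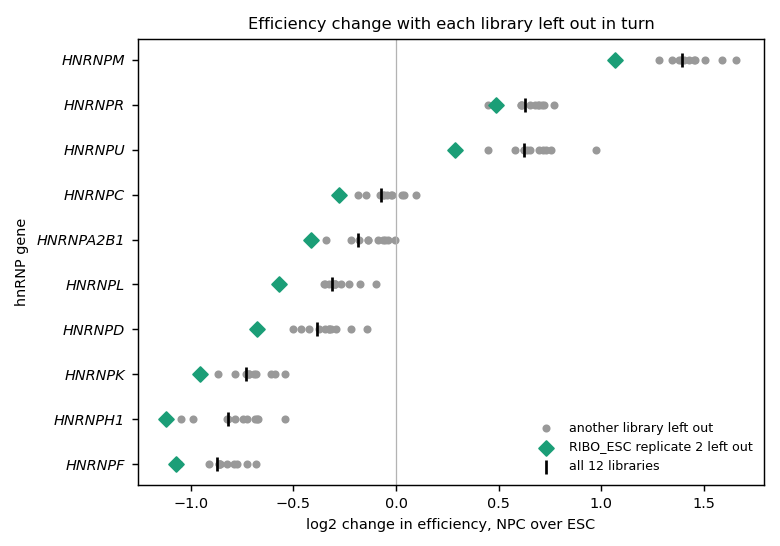
Log2 change in efficiency of NPC over ESC for each hnRNP gene with all 12 libraries (black tick), without RIBO_ESC replicate 2, the second ribosome-bound ESC library (green diamond), and without each other library in turn (grey points). HNRNPM stays above 0 and HNRNPF, HNRNPH1 and HNRNPK below 0 throughout, and the green diamond is at or near the low end of the points of every gene.

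Among the genes without a call, HNRNPR changed by 0.63 (95% interval 0.09 to 1.16, adjusted p = 0.0745) and HNRNPU by 0.62 (−0.23 to 1.48, adjusted p = 0.260), or 0.29 without RIBO_ESC replicate 2. HNRNPK changed by −0.73 (−1.36 to −0.10, adjusted p = 0.0769) and HNRNPH1 by −0.82 (−1.64 to 0.01, adjusted p = 0.127). These intervals are wide, and 4 of the genes without a call passed once RIBO_ESC replicate 2 was left out. They were HNRNPH1 at −1.12 (adjusted p = 0.00367), HNRNPK at −0.96 (0.00125), HNRNPD at −0.68 (0.0112) and HNRNPL at −0.57 (0.00893), so that 5 genes were lower and 1 higher, while 44.0% of all genes were called, 19.9% as lower and 24.1% as higher. The median log2 change was then −0.49 for the 10 genes and 0.0018 for all genes. Without both libraries that stood apart, 7 genes were lower and 1 higher, while 58.8% of all genes were called, 29.3% as lower and 29.5% as higher, and the medians were −0.62 for the 10 genes and −0.02 for all genes. That fit added HNRNPA2B1 at −0.67 (adjusted p = 8.01e-04) and HNRNPC at −0.37 (0.0362). HNRNPR passed without RIBO_ESC replicate 3 (0.77, adjusted p = 0.0479), and HNRNPH1 without RNA_ESC replicate 3 (−1.05, adjusted p = 0.0472), where 49.7% of all genes were called. HNRNPK also passed with no library left out, by DESeq2 (−0.77, adjusted p = 0.0297) and with DESeq2's size factors in edgeR (−0.77, 0.04999). Whether it was called thus depended on the tool and scaling. With all libraries, HNRNPD changed by −0.39, HNRNPL by −0.31, HNRNPA2B1 by −0.19 and HNRNPC by −0.07. The sign of HNRNPC turned without RIBO_ESC replicate 1 (0.04) or 3 (0.10) or RIBO_NPC replicate 3 (0.03).

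The ratio itself was then read within each state, from the same fit. In NPC, 3 of the 10 genes were higher in ribosome-bound than in total RNA and 4 were lower, while 64.0% of all genes were called, 31.9% as higher and 32.1% as lower. In ESC, 2 were higher and 2 lower, while 68.1% of all genes were called, 32.1% as higher and 36.0% as lower. These ratios share each state's libraries with the efficiency change and depend on scaling. With total counts in place of TMM the median ratio of all genes shifted by −0.30 in NPC and −0.26 in ESC, and the calls over all genes became 2812 higher and 4907 lower in NPC, and 3067 higher and 5123 lower in ESC. A gene's own length is on both sides of such a ratio. How reads are spread along a transcript and how those with several matches are kept may differ between the assays, so the order of the genes below is a description.

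**Figure D4:**
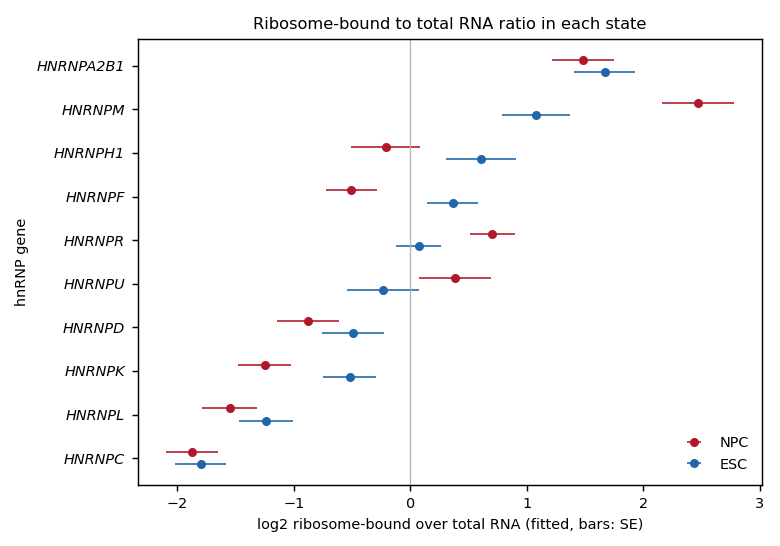
Log2 ratio of ribosome-bound over total RNA for each hnRNP gene in NPC (red, upper of each pair) and in ESC (blue), with bars for the SE of the fit over 12 libraries. HNRNPA2B1 and HNRNPM lie above 0 and HNRNPC and HNRNPL below −1 in both states.

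HNRNPM had the highest ratio of the 10 in NPC, 2.47 ± 0.31 on the log2 scale (adjusted p = 3.31e-06), above 96.2% of all genes, and 1.08 ± 0.29 in ESC (adjusted p = 0.00392). HNRNPA2B1 had a ratio of 1.48 ± 0.26 in NPC and 1.67 ± 0.26 in ESC (adjusted p = 1.29e-04 and 3.56e-05), which made it the highest of the 10 in ESC. These were the only members called higher in both states. HNRNPR had a ratio of 0.70 ± 0.19 in NPC (adjusted p = 0.00470) and 0.07 in ESC (0.753), and its NPC call ended with total-count scaling (0.40, adjusted p = 0.0841). The ESC value of HNRNPR fell below 0 without RNA_ESC replicate 1 or 2 or RIBO_ESC replicate 1 or 3, and stood at −0.18 with total-count scaling.

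HNRNPC had the lowest ratio in each state, −1.88 ± 0.22 in NPC and −1.80 ± 0.22 in ESC (adjusted p = 2.03e-06 and 2.45e-06), and 7.44% of all genes lay below it in NPC. HNRNPL followed with −1.55 ± 0.24 in NPC and −1.24 ± 0.23 in ESC (adjusted p = 2.85e-05 and 1.96e-04). Both genes were thus under-represented in ribosome-bound RNA in both states, relative to their own total RNA. HNRNPK at −1.25 ± 0.23 (adjusted p = 1.81e-04) and HNRNPD at −0.88 ± 0.27 (adjusted p = 0.00892) were lower in NPC. In ESC they stood at −0.52 (adjusted p = 0.0521) and −0.49 (0.108), not called, and at −0.33 and −0.23 without RIBO_ESC replicate 2. Total-count scaling called both lower in ESC, HNRNPK at −0.77 (adjusted p = 0.00959) and HNRNPD at −0.74 (0.0256), as did the fit without the filter (0.0134 and 0.0298) and that with the replicate block (0.0267 and 0.0344). The block joins ribosome-bound and total RNA libraries of equal number, which their deviations did not pair. By edgeR with TMM scaling and all libraries, the ratios of HNRNPF, HNRNPH1 and HNRNPU were called in neither state. HNRNPF had −0.51 in NPC and 0.36 in ESC (adjusted p = 0.0564 and 0.152), HNRNPH1 had −0.21 and 0.61 (0.552 and 0.0807), and HNRNPU had 0.39 and −0.24 (0.285 and 0.510). Several of these were called with other settings. HNRNPF was called lower in NPC by DESeq2 (−0.46, adjusted p = 0.0485), with total counts (−0.80, 0.00750), with protein-coding genes as the scaling base (−0.53, 0.0392), without the filter (−0.58, 0.0264) and with the replicate block (−0.53, 0.0380), and higher in ESC by DESeq2 (0.45, 0.0498). HNRNPH1 was called higher in ESC by DESeq2 (0.69, adjusted p = 0.0364) and with DESeq2's size factors in edgeR (0.69, 0.0417). Without RIBO_ESC replicate 2, HNRNPF was called lower in NPC (−0.53, 0.00349) and higher in ESC (0.54, 0.00590), HNRNPH1 higher in ESC (0.88, 0.00106), and HNRNPU higher in NPC (0.36, 0.0428), while 68.5% of all genes were called in NPC and 68.4% in ESC. The ESC value of HNRNPU turned to 0.07 there, and to 0.27, called higher (adjusted p = 0.0349), without both libraries that stood apart. That last fit called all 10 genes in NPC and 8 in ESC, while 77.5% and 74.8% of all genes were called.

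Down the order of ratios in NPC, the bars of 1 SE of neighbours overlapped for all but HNRNPM and HNRNPA2B1, and HNRNPA2B1 and HNRNPR. In ESC they overlapped for all but HNRNPA2B1 and HNRNPM, HNRNPK and HNRNPL, and HNRNPL and HNRNPC. Most of the order in the middle of the list is therefore within error. Together the 10 genes took 0.464% to 0.484% of all counts in NPC RNA, against 0.561%, 0.550% and 0.701% in ESC RNA. In ribosome-bound RNA their share was 0.349%, 0.455% and 0.373% in NPC, against 0.691%, 0.287% and 0.655% in ESC. The share was thus lower in NPC than in ESC in every total RNA library. In ribosome-bound RNA the second ESC library was below all NPC libraries and the other ESC libraries were above them.

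The genes were also compared with each other over all 12 libraries, by the root mean square difference of their log2 CPM after centring within each assay. This is a description, as the libraries include those that stood apart. HNRNPA2B1 and HNRNPD had the most similar profiles of the 45 pairs, at 0.146. HNRNPK and HNRNPL followed at 0.153, and HNRNPH1 and HNRNPK at 0.161. The least similar pair was HNRNPF and HNRNPR, at 0.856, the gene with the largest fall in ribosome-bound RNA and the gene with the rise. The mean profile of the 10 lay closest to HNRNPC (0.114) and HNRNPL (0.121). Of 6991 genes with at least 10 CPM in each group, the 5 closest outside the list were XRN2 (0.0938), MCL1 (0.0986), FANCD2 (0.100), ECD (0.101) and TMPO (0.103).

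Other genes of the hnRNP family and of the splicing machinery were counted for context. Of 19 further family members, 2 were higher and 6 lower in NPC total RNA, 2 higher and 11 lower in ribosome-bound RNA, and 1 higher and 6 lower in efficiency. These were 42.1%, 68.4% and 36.8% of the 19, beside 52.6%, 61.8% and 42.3% of all genes tested. Their median log2 changes were −0.23, −0.90 and −0.51 in that order. Without RNA_ESC replicate 3, 2 were higher and 12 lower in total RNA, while 69.6% of all genes were called. Without RIBO_ESC replicate 2, 2 were higher and 12 lower in ribosome-bound RNA, and 1 was higher and 10 lower in efficiency, while 68.1% and 44.0% of all genes were called. Of 13 SR proteins, which bind exonic enhancers, 2 were higher and 9 lower in NPC total RNA, 84.6% in all, with a median of −0.44. Of 28 core spliceosome genes, 1 was higher and 12 lower in NPC total RNA, 46.4% in all, with a median of −0.28. The core count became 5 higher and 19 lower without RNA_ESC replicate 3, 85.7% in all. In ribosome-bound RNA 12 SR proteins and 27 core genes could be tested. There 3 SR proteins were higher and 6 lower (median −0.42), and 3 core genes were higher and 11 lower (median −0.39), shares of 75% and 51.9%. In efficiency, 3 SR proteins were higher and 2 lower, and 4 core genes were higher and 6 lower, with shares of 41.7% and 37% and medians of −0.22 and −0.40. Without RIBO_ESC replicate 2 these became 3 higher and 5 lower of the SR proteins, and 5 higher and 12 lower of the core genes, 66.7% and 63.0%.

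Relatives of the 10 genes did not always move with them, and differences between genes were not tested. SYNCRIP, also called hnRNP Q and a close relative of HNRNPR, fell by 0.86 on the log2 scale in total RNA (adjusted p = 0.00217). Without RNA_ESC replicate 3 its log2 fold change was −0.66. HNRNPAB fell by 0.85 (adjusted p = 8.71e-05) and HNRNPDL, a relative of HNRNPD, by 0.64 (0.0123), or by 0.41 without RNA_ESC replicate 3, while HNRNPUL2 rose by 0.57 (0.00456) and the C-run binder PCBP2 by 0.42 (0.0138). In ribosome-bound RNA the largest falls among these 19 were those of HNRNPH2, a relative of HNRNPH1 (−2.19 ± 0.43, adjusted p = 0.00100), HNRNPDL (−1.53 ± 0.26, adjusted p = 3.54e-04) and PTBP3 (−1.36 ± 0.20, adjusted p = 1.01e-04). Without RIBO_ESC replicate 2 those log2 changes were −2.60, −1.78 and −1.30. With all libraries HNRNPUL1, a relative of HNRNPU, rose by 1.52 ± 0.24 (adjusted p = 1.85e-04) and HNRNPH3 by 0.73 ± 0.26 (0.0282), or by 0.48 without RIBO_ESC replicate 2. HNRNPUL1 was also the only one of the 19 whose efficiency was higher in NPC (1.54 ± 0.27, adjusted p = 3.24e-04). HNRNPH2 (−1.64), PCBP2 (−1.55) and PTBP2 (−1.03) showed the largest drops in efficiency, with adjusted p of 0.0216, 1.08e-04 and 0.0390. Their log2 changes were −2.02, −1.62 and −1.30 without RIBO_ESC replicate 2. Without RIBO_NPC replicate 1 the efficiency calls of HNRNPH2 (adjusted p = 0.0625) and PTBP2 (0.110) ended, while 35.5% of all genes were called.

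Counting could have affected a few values. The 27 pseudogene symbols of the 10 genes took at most 0.543% of the parent gene's counts in ribosome-bound RNA and 0.334% in total RNA, led by HNRNPCP2, HNRNPLP2 and HNRNPH1P1, and adding them to the parents changed no call of a member. Reads with several matches may still have been lost or split, as no source used here gives their treatment. In RefSeq the span of HNRNPK overlaps MIR7-1, HNRNPK-AS1 and RMI1, that of HNRNPU overlaps SNORA100 and LOC124904588, and HNRNPH1 and HNRNPL each overlap a lncRNA. Since the use of strand is not given either, values of these 4 genes carry that uncertainty.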

How the data were processed

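The values are counts per gene deposited by the authors, whole numbers without normalization, in a single table with a column per library. No column was left unused. Per the submitters' processing notes the tools were STAR 2.7.1a, Bowtie 1.2, cutadapt 1.18 and featureCounts 1.6.4, with hg38 and GRCh38 as builds. What each tool did, the annotation, the use of strand and reads with several matches are not stated there.

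Fold changes were tested with edgeR 4.0.16 in R 4.3.3 (TMM scaling, the filterByExpr filter, the quasi-likelihood F test, p-values adjusted over all genes tested by Benjamini-Hochberg, threshold 0.05). Each assay had a fit of its own. Efficiency and the ratios within a state came from a fit of 12 libraries with assay, state and their interaction, on genes that passed the filter in both assays. SE is the size of the log2 fold change divided by the square root of F, and 95% intervals are 1.96 SE to either side. That normal quantile ignores the few residual degrees of freedom of the F test, so the intervals are too narrow. DESeq2 1.42.0 and limma 3.58.1 were alternatives, with other scalings, no filter, a replicate block, pseudogene counts added and each library left out. Tests were checked on simulated counts.

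Whether replicate numbers pair the total RNA libraries could not be settled. Deviations from the group means correlated at 0.522, 0.359 and 0.732 for numbers 1, 2 and 3 over 8328 genes. RNA_NPC replicate 1 correlated as well with RNA_ESC replicate 2, at 0.537, and RNA_NPC replicate 2 with RNA_ESC replicate 1, at 0.36. RNA_ESC replicate 3 stood apart, so the other ESC libraries deviated alike. The fits used no block on replicate except where a block is named. The block changed no call of the 10 genes in total RNA.

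The 10 genes and all lists were chosen with earlier results of these data known. Of other family members, the text names up to 3 rises and 3 falls per comparison, the largest that were called, and of all genes the 5 with the closest profiles. Promoters came from RefSeq's table for GRCh38.p14. Protein sequences were not used here, so the planned comparison of proteins was not made. Python 3.11.15 with pandas 2.3.3 and matplotlib 3.10.9 drew the figures.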

Additional observations from a re-analysis of the deposited data

Results flagged for a closer look

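The change in ribosome-bound RNA differed from the change in total RNA for 2 of the 10 genes, by the test of the difference itself (interaction of assay and state, edgeR quasi-likelihood test, adjusted over 11866 genes, of which 42.3% were called). For HNRNPM the difference was 1.39 ± 0.41 on the log2 scale (SE, adjusted p = 0.0133), from a log2 fold change of 0.66 in ribosome-bound RNA and −0.80 in total RNA. For HNRNPF it was −0.87 ± 0.31 (adjusted p = 0.0346), from −1.51 in ribosome-bound RNA and −0.71 in total RNA, and this call ended in 9 of the 12 fits that left out 1 library. RIBO_ESC replicate 2, in which all 10 genes were low, moved both values, to 1.07 for HNRNPM and −1.07 for HNRNPF when it was left out, and its part in the difference was otherwise not tested. Groups of 3 libraries are too small for a check of single outlying values.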

How the results depend on the processing

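Another tool, scaling, filter or added pseudogene counts left each count of called hnRNP genes within 1.5 times of that reported, and the cause of the changes below was not tested. With single libraries left out, the count ran from 5 to 7 in total RNA, from 3 to 8 in ribosome-bound RNA, from 1 to 6 in efficiency, from 7 to 9 for the ratio in NPC and from 4 to 6 for the ratio in ESC. The share called over all genes moved too. Without RIBO_NPC replicate 1 it was 53.1% in ribosome-bound RNA (3 of the 10 called) and 35.5% in efficiency (1). Without RIBO_ESC replicate 2 these were 68.1% (8) and 44.0% (6), and the ratios had 68.5% in NPC (9) and 68.4% in ESC (6). In total RNA it was 69.6% without RNA_ESC replicate 3 (7). Without both libraries that stood apart, 8 genes were called in efficiency and 8 in the ESC ratio, while 58.8% and 74.8% of all genes were called. The replicate block gave 6 calls in total RNA, 4 in ribosome-bound RNA (HNRNPH1 and HNRNPK lost, adjusted p = 0.0727 and 0.0701), 2 in efficiency, 8 in the NPC ratio and 6 in the ESC ratio. Shares over all genes under the block are not given here, so these counts stand without a background. The numbers did not pair the ribosome-bound libraries, whose deviations correlated at −0.285, −0.378 and −0.025 for equal numbers. Nor did they pair the assays, which the block joins in the efficiency and ratio fits. Deviations of ribosome-bound and total RNA libraries of equal number correlated at −0.0451, −0.0424 and −0.244 in NPC and at −0.158, 0.171 and 0.117 in ESC. Some values changed sign. HNRNPR in total RNA ran from −0.082 to 0.20 with single libraries left out, HNRNPC in efficiency from −0.28 to 0.10, and the ESC ratio of HNRNPR from −0.061 to 0.21 and of HNRNPU from −0.61 to 0.072. The ESC ratio of HNRNPR was −0.18 with total counts and −0.053 without the filter, and that of HNRNPU was 0.27 without both libraries that stood apart, called higher (adjusted p = 0.0349). Summed over the 10 genes, NPC RNA averaged 4723 CPM with total counts in place of 4612 CPM with TMM. The ribosome-bound libraries hold far fewer counts and spread more, so changes there are less precise.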

Other observations

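Some relatives of the 10 genes were nearly missing from ribosome-bound RNA in both states. HNRNPA1, an abundant splicing repressor, had 369 counts over the 6 ribosome-bound libraries and 177551 over the 6 total RNA libraries. Its log2 ratio of ribosome-bound to total RNA was −5.48 in NPC and −5.94 in ESC (edgeR, adjusted p = 2.85e-10 and 1.69e-10). HNRNPA3 had 97 ribosome-bound and 45080 total RNA counts, with ratios of −5.39 in NPC and −5.90 in ESC (adjusted p = 1.81e-11 and 1.49e-11). HNRNPUL2 had 63 ribosome-bound and 12320 total RNA counts, with ratios of −4.26 in NPC and −4.50 in ESC (adjusted p = 4.27e-08 and 7.27e-08), and 0 counts in RIBO_ESC replicate 2, so its fitted ratio rests on few counts.

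The table holds 75 pseudogene symbols of HNRNPA1, whose ribosome-bound counts came to 59.1% of those of the gene, against 0.665% in total RNA. The 16 pseudogene symbols of HNRNPA3 came to 28.9% in ribosome-bound RNA, against 0.193% in total RNA. HNRNPUL2 has no pseudogene symbol in the table. The part of reads shared with copies in these low values was not tested. At the other end, HNRNPH3 had a ratio of 2.48 in NPC and 1.73 in ESC, and HNRNPLL 1.28 in NPC and 2.01 in ESC, while HNRNPUL1 had 1.06 in NPC and −0.48 in ESC, each with an adjusted p under the threshold.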
